A study of Arabidopsis thaliana with 6 samples.

Results

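The spliceosome genes described here are 43 Arabidopsis thaliana loci that code for proteins of the small nuclear ribonucleoproteins (snRNPs) and for the factors that join or build them. They were taken by locus identifier from a list of U1, U2, U2AF, U4/U6.U5, Prp19 complex and snRNP assembly genes, which leaves out the Sm and LSm ring proteins and most SR proteins. All 43 were present among the 37869 genes of the deposited gene table, and their 160 transcripts were followed in the transcript table. Shoots of 2 genotypes in the Col-0 background were compared, with 3 libraries each. The mutant was sme1-1, written smeb-1 in the sample labels, named for SME1 (AT2G18740), the gene of a core Sm ring protein. The control was wild-type Col-0. Both were 3-week-old seedlings grown in vitro at 21 °C with 16 h of light a day and harvested without stress. The labels give neither the position of the mutation nor its zygosity, nor whether the 3 libraries of each genotype go back to plants grown apart. The p-values therefore speak for library-to-library spread alone, part or all of which may be technical.

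The spliceosome removes introns from precursor mRNA. The U1 snRNP pairs with the 5' splice site, U2AF and SF1 mark the 3' splice site and the branch point for the U2 snRNP, and the U4/U6.U5 tri-snRNP then joins. The Prp19 complex accompanies the activated machine, further factors act in the second catalytic step, and others take the spliceosome apart. Sm proteins such as SmE form the ring on which most spliceosomal snRNAs are assembled, with the help of the methyltransferase PRMT5, pICln and GEMIN2. The comparison asks how the transcripts of the other spliceosome proteins stand in shoots with less SME1 transcript.

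Values are in TPM, a transcript's abundance corrected for length and scaled to the same total in each library, and they keep no record of sequencing depth, so the depth is unknown and no counting interval is given. SME1 itself had 36.1, 31.6 and 29.7 TPM in the sme1-1 libraries and 76.9, 73.9 and 75.3 TPM in the wild-type libraries, so each library stood on the side its label gives. Across genes, libraries correlated at 0.982 to 0.988 within sme1-1, at 0.985 to 0.99 within wild type and at 0.855 to 0.903 between genotypes (Pearson's r of log2(TPM + 1), 20100 genes). Root markers summed to 274 to 524 TPM in sme1-1 and to 128 to 205 TPM in wild type, and 7 of 8 were tested and all 7 rose. Floral markers summed to 5.87 to 7.25 TPM in sme1-1 and 2.57 to 4.43 TPM in wild type, and 5 leaf markers to 35652 to 40479 TPM in sme1-1 and 39656 to 43082 TPM in wild type. None of these markers was listed at 0 in any library, and their part in the results was not tested. In whole shoots, fewer cells of a type and less RNA per cell cannot be told apart.

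The spliceosome genes differed little between genotypes. Of the 43 genes, 21 rose in sme1-1, 5 fell and 17 did not pass the test (limma, adjusted p under 0.05). Over all 20100 genes tested the background was high, with 47.3% called higher, 20% called lower and 67.3% in either direction, so 21 of 43 lies near the background and 5 of 43 below it, differences that were not tested. None of the 43 changed by 2-fold or more, against 14.1% of all genes that rose and 4.74% that fell by at least that much. The 43 genes averaged 5.29 to 96.8 TPM, while all genes from a mean of 1 TPM were tested, so the sets were not matched for level. Their median absolute log2 change was 0.21, beside 0.42 over all genes, and 86.05% of them lay under 0.5, beside 56.41% of all genes. The 43 genes together held 1476 to 1577 TPM in sme1-1 and 1387 to 1521 TPM in wild type, ranges that overlap. Libraries of the genotypes did not overlap for 23 genes that were higher and 7 that were lower in sme1-1, beside 51% and 22.4% of all genes.

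The direction of small changes depends on the scaling. The median gene was 0.22 higher in sme1-1 on the log2 scale, and the median spliceosome gene 0.13 higher, which is 0.08 below the median of all genes. After median-of-ratios scaling, which moves the median of all genes to 0.0033, 12 of the 43 were higher and 15 lower, beside 33.9% and 33.2% of all genes. After quantile normalization 13 were higher and 9 lower, beside 30.4% and 36.3%. Called higher under all 3 scalings were 11 genes: UNE6, ATO, SAP130a, SUS2, emb1507, MEE5, AT1G28060, PRL1, SKB1, AT5G62290 and SR45a. Called lower under all 3 were 5 genes: U1-70K, ATU2AF35A, U2B'', CDC5 and SKIP. A further 6 were called under none, and the call of the other 21 differed between scalings. Of the 21 genes that rose, 17 were also called when each library was left out in turn, and of the 5 that fell only U2B'' was.

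**Figure D1:**
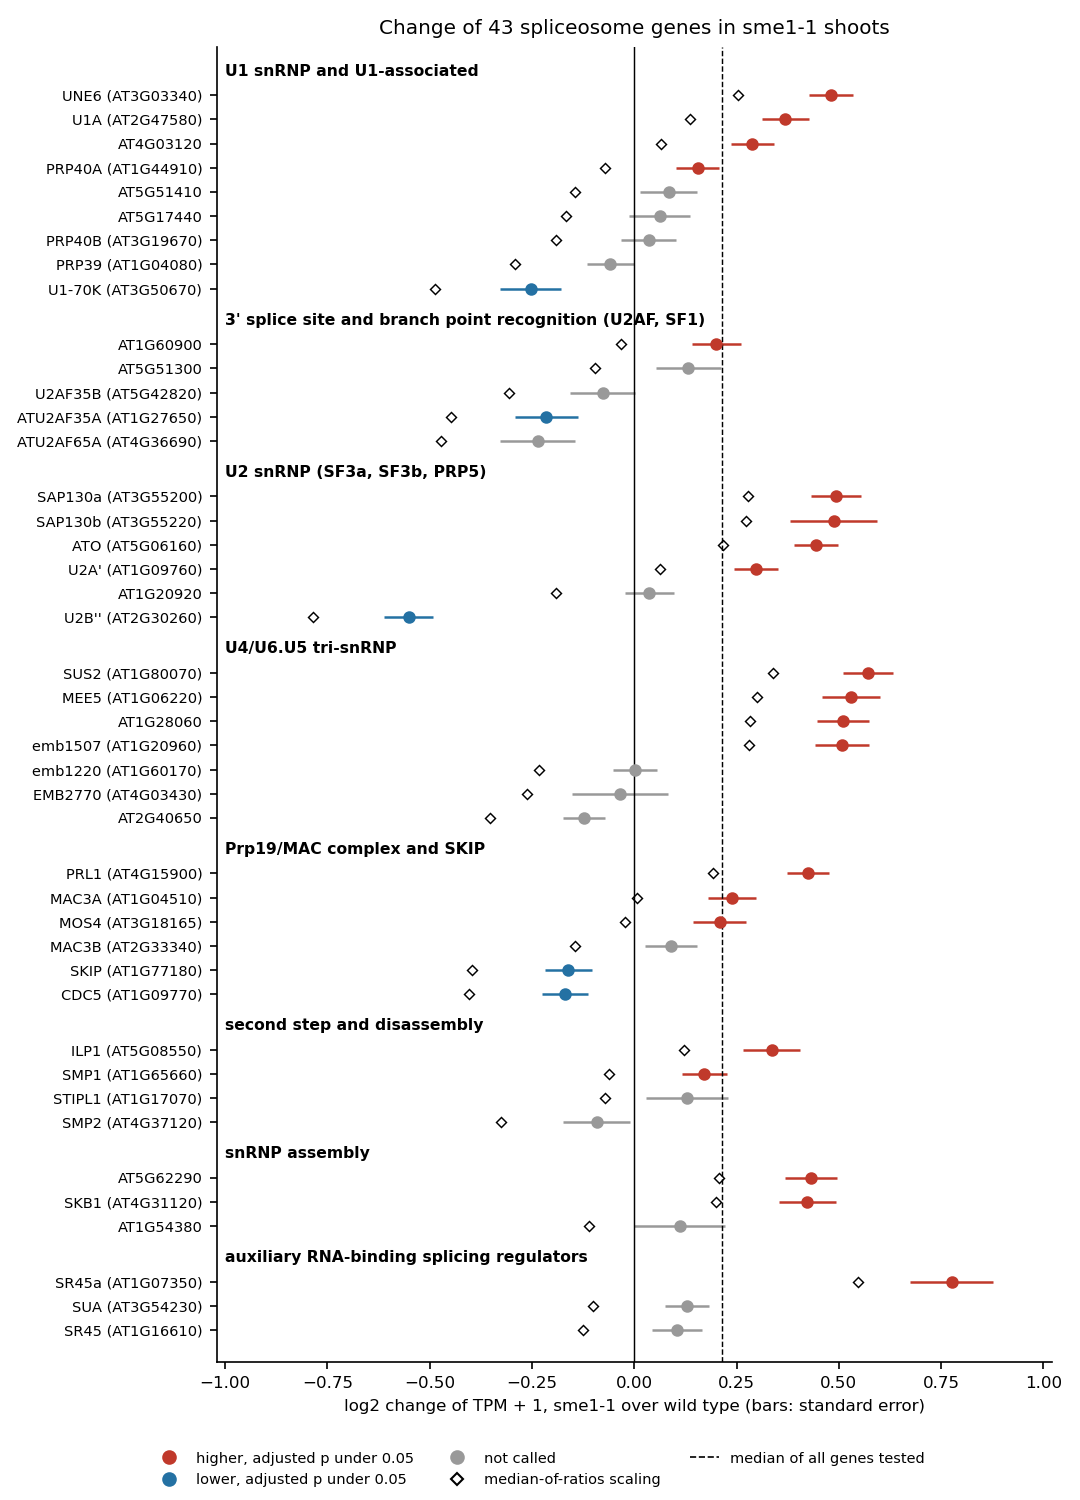
Log2 change of TPM + 1 (x axis, sme1-1 over wild type) of the 43 genes (rows, grouped by role), with filled points for the TPM as deposited (bars, standard error; 3 libraries per genotype) open diamonds after median-of-ratios scaling and a dashed line at the median of all genes (0.22). The largest change is 0.78, in SR45a, and the open diamonds lie to the left of the filled points.

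Among 9 genes of the U1 snRNP and its partners, 4 rose (UNE6, U1A, AT4G03120 and PRP40A), 1 fell (U1-70K) and 4 did not pass the test, with a median log2 change of 0.08. U1-70K, which binds the first stem-loop of U1 snRNA, had 57.4, 51.4 and 56.8 TPM in sme1-1 libraries and 70.7, 66.3 and 61.1 TPM in wild-type libraries. The genotypes did not overlap, and U1-70K fell by 0.25 on the log2 scale (SE 0.0746, adjusted p = 0.0210). With each of the 6 libraries left out in turn, it passed the test in 3 fits and missed it without sme1-1 library 2, wild-type library 1 or wild-type library 2 (adjusted p 0.0136 to 0.0635 over the 6). UNE6 codes for a LUC7-related protein, a family that in yeast belongs to the U1 snRNP. It had 30.5, 28.7 and 30.99 TPM in sme1-1 and 21.4, 21.1 and 21.2 TPM in wild type. UNE6 was the gene of this group with the smallest adjusted p, with a log2 change of 0.48 (SE 0.0536, adjusted p = 0.000302). U1A, which binds the second stem-loop of U1 snRNA, averaged 51.5 ± 1.18 TPM in sme1-1 and 39.7 ± 2.09 TPM in wild type (SD, n = 3 each), and its rise of 0.37 was not called after median-of-ratios scaling. AT4G03120, annotated as a zinc finger protein, averaged 17.03 ± 0.164 TPM in sme1-1 and 13.8 ± 0.326 TPM in wild type. PRP40A, related to a yeast U1 protein that bridges the ends of the intron, was called higher with 18.4 ± 0.412 TPM in sme1-1 against 16.5 ± 0.179 TPM in wild type (adjusted p = 0.0342). Its call was lost when any one library was left out (adjusted p 0.0519 to 0.12), and its log2 change of 0.15 became -0.07 after median-of-ratios scaling. The other LUC7-related genes, AT5G17440 and AT5G51410, and the U1-associated PRP39 and PRP40B had overlapping libraries, with log2 changes between -0.06 and 0.08.

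Of 5 genes that mark the 3' splice site and branch point, ATU2AF35A fell, AT1G60900 rose and 3 did not pass the test. ATU2AF35A, the small U2AF subunit that reads the AG at the 3' splice site, had 43.4, 42.95 and 47.7 TPM in sme1-1 and 56.4, 48.3 and 51.5 TPM in wild type. The fall of 0.21 was close to the threshold (SE 0.0761, adjusted p = 0.0416) and was called in 2 of the 6 fits that left out a library (adjusted p 0.034 to 0.113). ATU2AF65A, a large subunit that binds the polypyrimidine tract, had 93.5, 83.5 and 88.8 TPM in sme1-1 and 117, 104 and 93.5 TPM in wild type, with a log2 change of -0.24 that missed the threshold (adjusted p = 0.0570). AT1G60900, the other large-subunit gene, had 53.5, 49.2 and 52.1 TPM in sme1-1 and 46.8, 45.1 and 42.4 TPM in wild type. Its rise of 0.20 (adjusted p = 0.0231) turned into a difference of -0.03 after median-of-ratios scaling and was called without 2 of the 6 libraries (adjusted p 0.0239 to 0.0711). U2AF35B and the SF1 gene AT5G51300, which codes for the branch point binding protein, had overlapping libraries and log2 changes of -0.08 and 0.13. After median-of-ratios scaling ATU2AF35A, ATU2AF65A and U2AF35B were called lower (adjusted p = 0.00209, 0.00222 and 0.00979). The same 3 were called lower after quantile normalization (adjusted p = 0.0120, 0.0192 and 0.0424). None of the 5 was called higher under either of these scalings.

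Within the U2 snRNP the transcripts of the 2 proteins that pair on U2 snRNA moved in opposite directions in the TPM as deposited. U2B'' had 45.9, 45.6 and 49.6 TPM in sme1-1 and 72.8, 67.8 and 67.5 TPM in wild type. Every sme1-1 library lay below every wild-type library, and the fall of 0.55 was the largest among the 43 genes (SE 0.0593, adjusted p = 0.000262). Its partner U2A' had 59.4, 58.5 and 60.9 TPM in sme1-1 and 49.8, 46.1 and 49.2 TPM in wild type, a rise of 0.30 (SE 0.0528, adjusted p = 0.00238) that was not called after median-of-ratios scaling. ATO, related to a subunit of the U2 complex SF3a, had 26.6, 25.8 and 27.3 TPM in sme1-1 and 19.5, 18.6 and 19.7 TPM in wild type, a rise of 0.44 (SE 0.0544, adjusted p = 0.000452). The SF3b genes SAP130a and SAP130b averaged 11.5 ± 0.401 and 11.1 ± 0.841 TPM in sme1-1, against 7.90 ± 0.19 and 7.66 ± 1.01 TPM in wild type (SD, n = 3 each), and each rose by 0.49. These genes are near-identical: 87.2% of the 31-base windows in SAP130a transcripts also occur in SAP130b, so the split of reads between them is uncertain and their sum, 22.6 TPM in sme1-1 against 15.6 TPM in wild type, is the firmer value. AT1G20920, a helicase related to yeast PRP5, averaged 24.0 ± 0.474 TPM in sme1-1 and 23.4 ± 1.26 TPM in wild type, with overlapping libraries.

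The U4/U6.U5 tri-snRNP had the highest median change of the 8 role groups. Of its 7 genes 4 rose, none fell and 3 did not pass the test, with a median log2 change of 0.51, against 0.22 over all genes. SUS2, the plant PRP8 that lines the catalytic centre, had 43.7, 40.4 and 42.1 TPM in sme1-1 and 28.1, 29.4 and 26.4 TPM in wild type, a rise of 0.57 (SE 0.0619, adjusted p = 0.000269). AT1G28060, the PRP3 protein of the U4/U6 snRNP, had 22.6, 22.7 and 23.6 TPM in sme1-1 and 16.2, 16.5 and 14.8 TPM in wild type, a rise of 0.51 (SE 0.0627, adjusted p = 0.000463). The helicase gene emb1507, known as BRR2, which unwinds U4 from U6, had 26.5, 24.2 and 24.7 TPM in sme1-1 and 16.9, 18.5 and 16.7 TPM in wild type, a rise of 0.51 (SE 0.0657, adjusted p = 0.000579). MEE5, the GTPase related to yeast SNU114 that controls BRR2, had 31.5, 27.5 and 28.6 TPM in sme1-1 and 19.9, 20.8 and 19.0 TPM in wild type, a rise of 0.53 (SE 0.0705, adjusted p = 0.000657). In these 4 genes every sme1-1 library lay above every wild-type library, and the calls held under all 3 scalings and without each library in turn. The other 3 did not pass the test. EMB2770, related to PRP6, averaged 21.6 ± 0.988 TPM in sme1-1 and 22.4 ± 3.61 TPM in wild type, and emb1220, related to PRP31, 45.2 ± 1.48 TPM in sme1-1 and 45.2 ± 1.65 TPM in wild type. AT2G40650, a PRP38 family gene, had 29.9, 28.8 and 29.6 TPM in sme1-1 and 32.4, 32.9 and 30.98 TPM in wild type, with a log2 change of -0.12 that missed the threshold (adjusted p = 0.0726). After median-of-ratios scaling AT2G40650 and emb1220 were both called lower (log2 change -0.353 and -0.232, adjusted p = 0.000611 and 0.0067). After quantile normalization AT2G40650 was again called lower (-0.244, adjusted p = 0.00299) and emb1220 was not called. The summed TPM of the 7 genes, as deposited, was 209 to 223 in sme1-1 and 171 to 188 in wild type, which did not overlap. In the TPM as deposited, the sum of the snRNP assembly genes, and that of SR45, SR45a and SUA, was also higher in sme1-1 without overlap. Median-of-ratios scaling lowers sme1-1 against wild type (factors 1.06 to 1.118 against 0.909 to 0.932). The sums were not compared after it, so their separation may depend on the scaling.

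In the Prp19 complex, called MAC in plants, and its partner SKIP, 3 of 6 genes rose and 2 fell. PRL1, a WD40 protein of the complex, had 54.2, 51.0 and 53.8 TPM in sme1-1 and 40.4, 38.9 and 38.3 TPM in wild type, a rise of 0.43 (SE 0.0518, adjusted p = 0.000446). MAC3A, one of the Prp19-type ubiquitin ligase genes, had 34.96, 34.1 and 34.4 TPM in sme1-1 and 30.5, 29.5 and 27.3 TPM in wild type, a rise of 0.24 (adjusted p = 0.0101) that stood at 0.0078 after median-of-ratios scaling. Its more abundant copy MAC3B averaged 81.8 ± 5.12 TPM in sme1-1 and 76.7 ± 2.93 TPM in wild type, with overlapping libraries. MOS4, a core member of the complex, was called higher with 37.0, 36.3 and 40.4 TPM in sme1-1 and 33.8, 33.1 and 31.1 TPM in wild type, but in 3 of the 6 fits without a library it was not (adjusted p 0.0306 to 0.0862), and its log2 change was 0.21 as deposited and -0.02 after median-of-ratios scaling. CDC5, the Myb-related core protein, fell to 60.2, 56.1 and 61.0 TPM in sme1-1, against 69.3, 64.7 and 65.8 TPM in wild type (log2 change -0.17, adjusted p = 0.0338). SKIP, which links splicing to the circadian clock, fell to 78.0, 76.6 and 81.2 TPM in sme1-1, against 92.1, 88.7 and 83.4 TPM in wild type (log2 change -0.16, adjusted p = 0.0409). In both genes the genotypes did not overlap, yet CDC5 was called in none of the 6 fits that left out a library (adjusted p 0.0532 to 0.0927) and SKIP in 1 (adjusted p 0.0263 to 0.114).

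Of 4 genes of the second step and of disassembly, 2 rose and 2 did not pass the test. ILP1, a disassembly factor, had 10.98, 10.12 and 10.99 TPM in sme1-1 and 8.66, 8.39 and 7.76 TPM in wild type, a rise of 0.34 (SE 0.07, adjusted p = 0.00493) that was not called under either other scaling and stood at -0.0041 after quantile normalization. SMP1, related to yeast SLU7, which helps choose the 3' splice site, had 47.0, 43.2 and 45.8 TPM in sme1-1 and 40.7, 38.8 and 40.9 TPM in wild type. Its rise of 0.17 (adjusted p = 0.0300) was called in 2 of the 6 fits without a library (adjusted p 0.0254 to 0.109) and stood at -0.06 after median-of-ratios scaling. STIPL1, another disassembly factor, was the least abundant of the 43 genes, with 5.56 ± 0.249 TPM in sme1-1 and 5.02 ± 0.676 TPM in wild type (SD, n = 3 each), and did not pass. SMP2 averaged 58.7 ± 1.48 TPM in sme1-1 and 62.9 ± 6.39 TPM in wild type and did not pass either.

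Of the 3 snRNP assembly genes 2 rose. SKB1, the PRMT5 methyltransferase that modifies Sm proteins, had 18.5, 16.1 and 17.2 TPM in sme1-1 and 13.1, 12.4 and 12.2 TPM in wild type, a rise of 0.42 (SE 0.0695, adjusted p = 0.00168). AT5G62290, the pICln gene whose product holds Sm proteins before ring closure, had 18.5, 17.04 and 18.6 TPM in sme1-1 and 13.5, 13.3 and 12.5 TPM in wild type, a rise of 0.43 (SE 0.0636, adjusted p = 0.00105). Both were called under all 3 scalings and without each library in turn. AT1G54380, the GEMIN2 gene, had 15.5, 13.6 and 13.6 TPM in sme1-1 and 15.0, 13.2 and 11.2 TPM in wild type, and these overlap.

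SR45a, an RNA-binding splicing regulator known for its response to heat and light stress, had the largest change of the 43 genes. It had 33.7, 26.2 and 29.0 TPM in sme1-1 and 18.2, 15.8 and 16.5 TPM in wild type, a rise of 0.78 (SE 0.102, adjusted p = 0.000631). Most of its TPM lay in transcripts that lack the start codon of the longest annotated reading frame: AT1G07350.2 averaged 11.8 ± 2.18 TPM in sme1-1 and 6.23 ± 0.989 TPM in wild type, and AT1G07350.6 averaged 10.06 ± 2.11 TPM in sme1-1 and 4.96 ± 0.971 TPM in wild type. Both rose (adjusted p = 0.00686 and 0.00826), while AT1G07350.1, with the longest frame of 382 codons, averaged 4.05 ± 1.17 TPM in sme1-1 and 3.17 ± 0.976 TPM in wild type and did not pass. The relative use of its transcripts was not called as different (Simes adjusted p = 0.412). SR45 and SUA, regulators of the same group, lay higher in all sme1-1 libraries than in any wild-type library, with 29.2 ± 1.12 and 24.9 ± 0.704 TPM in sme1-1 and 27.1 ± 1.36 and 22.7 ± 0.656 TPM in wild type, but did not pass the test (adjusted p = 0.171 and 0.0708). Their log2 changes of 0.10 and 0.13 became -0.13 and -0.0997 after median-of-ratios scaling, and -0.0239 and -0.0235 after quantile normalization.

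**Figure D2:**
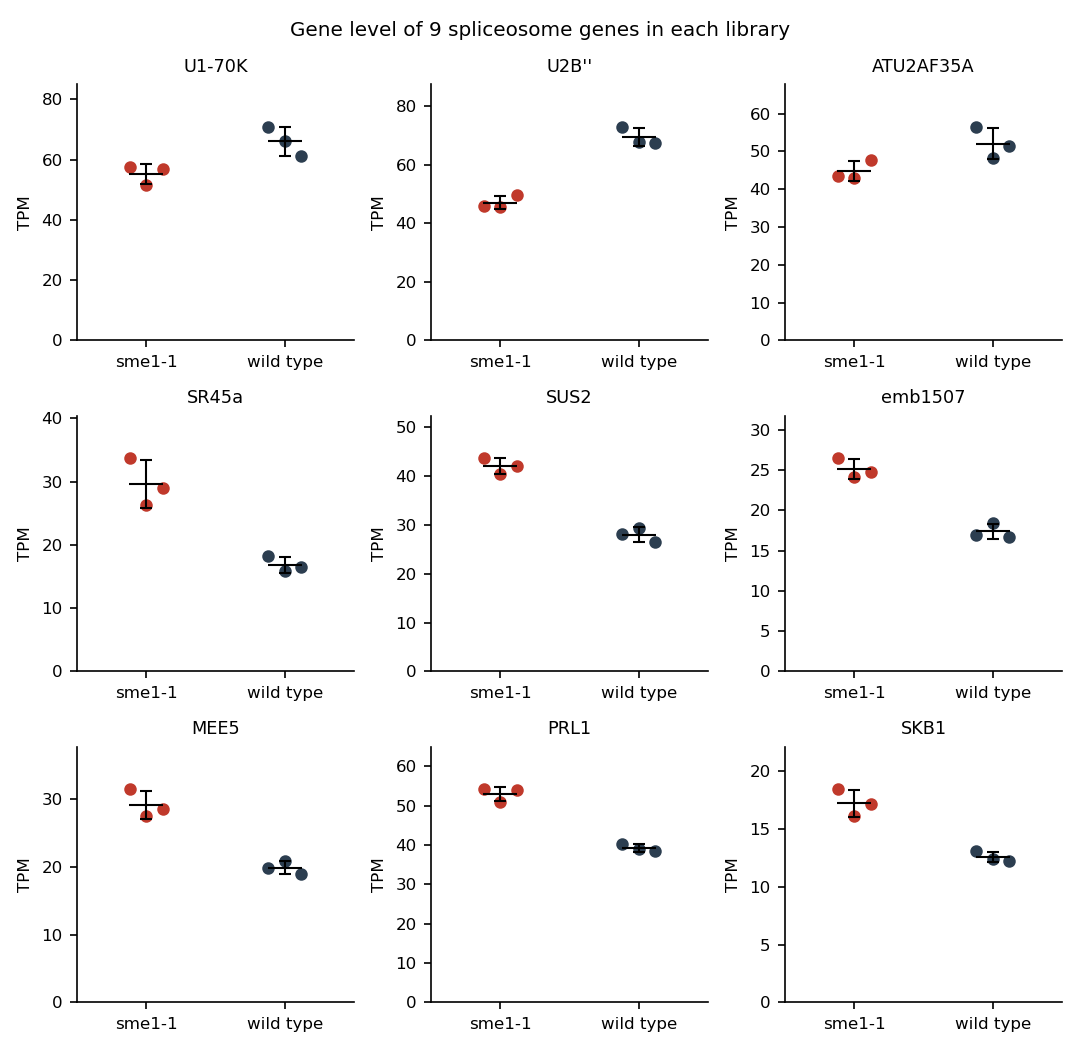
Gene level in TPM (y axis, starting at 0) of 9 genes in each library (points), with the mean and SD of 3 libraries (black), sme1-1 left and wild type right. U1-70K, U2B'' and ATU2AF35A are lower in each sme1-1 library than in each wild-type library, and the other 6 are higher.

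Within 7 pairs of similar genes the split of the summed TPM shifted by a few percentage points. UNE6 held 48.3, 49.5 and 50.5% of the sum with AT5G17440 in sme1-1 libraries and 40.3, 41.9 and 43.7% in wild-type libraries. ATU2AF65A held 63.6, 62.9 and 63.1% of the sum with AT1G60900 in sme1-1 and 71.5, 69.7 and 68.8% in wild type. The genotypes did not overlap in either pair, with mean differences of 7.48 and -6.82 percentage points. SMP1 held 43.6 ± 0.415% of the sum with SMP2 in sme1-1 and 39.1 ± 2.91% in wild type (SD, n = 3 each). ATU2AF35A held 62.5 ± 0.67% of the sum with U2AF35B in sme1-1 and 64.7 ± 0.202% in wild type, and MAC3A 29.7 ± 1.08% of the sum with MAC3B in sme1-1 and 27.5 ± 0.403% in wild type. These 5 pairs gave p = 0.1 in the exact two-sided permutation test, the smallest value that 3 against 3 libraries allow, and 0.14 after Benjamini-Hochberg adjustment over the 7 pairs, so none could pass 0.05. PRP40A held 46.5 ± 1.396% in sme1-1 and 44.3 ± 1.05% in wild type (exact p = 0.2), and SAP130a 51.0 ± 2.13% in sme1-1 and 50.9 ± 4.01% in wild type (exact p = 1), with overlapping libraries in both.

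**Figure D3:**
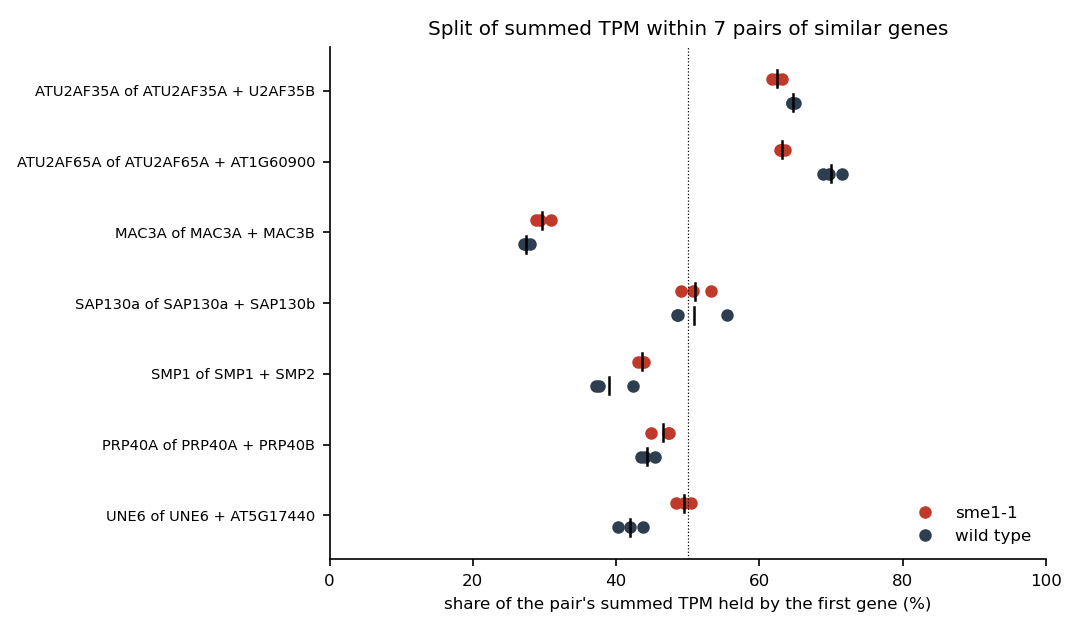
Share of the summed TPM held by the first gene of each of 7 pairs (x axis, percent), with a point per library and a bar at the mean, sme1-1 above wild type. The shift is widest for UNE6 with AT5G17440 (7.48 percentage points higher in sme1-1) and ATU2AF65A with AT1G60900 (a difference of -6.82 points).

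The transcripts of the 43 genes were then compared one by one. Of 123 transcripts that reached a mean of 1 TPM, 24 rose and 10 fell, beside 29.1% and 14.5% of all 39381 transcripts tested. The relative use of transcripts within a gene was tested for 28 of the 43 genes and differed for 7 (limma diffSplice, Simes adjusted p under 0.05): U1-70K, AT2G40650, MEE5, EMB2770, U2B'', ATU2AF65A and AT5G51410. Over all 9382 genes tested 23.2% were called, so 7 of 28 lies near the background. On simulated data this test made more false calls than its threshold allows. A second test, chosen after the data were seen, sets each transcript against the rest of its gene with its own spread. It called 5.61% of all genes and 2 of the 28, U1-70K and EMB2770. U1-70K, AT2G40650 and MEE5 kept the first call without each library in turn, EMB2770 in 4 of 6 fits, U2B'' and ATU2AF65A in 2 and AT5G51410 in 1.

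U1-70K had the smallest adjusted p in the test of relative use (Simes adjusted p = 0.000605). Its gene lies on chromosome 3 (RefSeq, TAIR10.1, 18826160 to 18829684, minus strand). The deposited annotation holds 4 transcripts, which differ around intron 6 of 8, a 909-base intron inside the coding region (chr3:18827440-18828348). AT3G50670.1 splices it out and keeps a reading frame of 427 codons. AT3G50670.2 retains it, and TCONS_00024475, an assembled transcript, retains its first part and splices from an inner donor over 113 bases to the same acceptor. Both read only 204 codons from the annotated start before a stop. The 4 splice sites are shown because the comparison turns on the choice among them, read from TAIR10.1, 5' to 3' on the minus strand, with the first or last 2 bases of the intron in capitals.
U1-70K donor of the 909-base intron, chr3:18828331-18828360: ccaattaaacggGTaggttattctgagcat
U1-70K first inner donor, chr3:18827535-18827564: cacaacataaagGTtgcctgccttatagag
U1-70K second inner donor, chr3:18827511-18827540: atagagctgcatGTttgtttgatatgaaac
U1-70K shared acceptor, chr3:18827428-18827457: tcttctgaaacttctcAGgttcatttggtg

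In the TPM as deposited, the transcript with the full frame rose while the gene fell. Median-of-ratios scaling moved the log2 change of the gene from -0.25 to -0.49. The transcript changes below are not given after that scaling, so the size of the rise depends on it. Shares within a gene do not. AT3G50670.1 had 22.0, 21.0 and 23.9 TPM in sme1-1 libraries and 17.6, 14.7 and 13.02 TPM in wild-type libraries, a rise of 0.54 on the log2 scale (SE 0.12, adjusted p = 0.0100). AT3G50670.2 fell to 21.2, 16.5 and 19.9 TPM in sme1-1, against 26.5, 23.8 and 26.8 TPM in wild type (log2 change -0.41, SE 0.108, adjusted p = 0.0213). TCONS_00024475 fell to 13.5, 12.96 and 11.6 TPM in sme1-1, against 25.2, 26.5 and 19.3 TPM in wild type (log2 change -0.84, SE 0.133, adjusted p = 0.00247). In all 3 the genotypes did not overlap. The fourth, TCONS_00029676, which uses the second inner donor, averaged 0.994 ± 0.29 TPM in sme1-1 and 1.59 ± 0.401 TPM in wild type and did not pass.

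AT3G50670.1 thus made up 40.4 ± 1.97% of the gene's TPM in sme1-1 and 22.8 ± 1.85% in wild type (SD, n = 3 each), and its ratio to the rest of the gene rose by 1.199 on the log2 scale (SE 0.197, adjusted p = 0.0401). The transcript that uses the first inner donor was set against the one that splices the whole intron. Its share was 38.0, 38.1 and 32.7% in sme1-1 libraries and 58.9, 64.3 and 59.7% in wild-type libraries, with a log2 ratio change of -1.45 (SE 0.22, adjusted p = 0.0359). This was the only alternative 5' splice site called among 17 tested in the 43 genes, beside 0.902% of all 2995 sites called lower and 0.701% called higher. Retention of the whole 909-base intron was 46.2 ± 2.63% in sme1-1 and 63.1 ± 3.74% in wild type and missed the threshold (adjusted p = 0.0645). These shares come from the same transcript values and are not independent of each other. The donor call was lost without any one library (adjusted p 0.0887 to 0.133), although the log2 ratio stayed between -1.51 and -1.34.

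**Figure D4:**
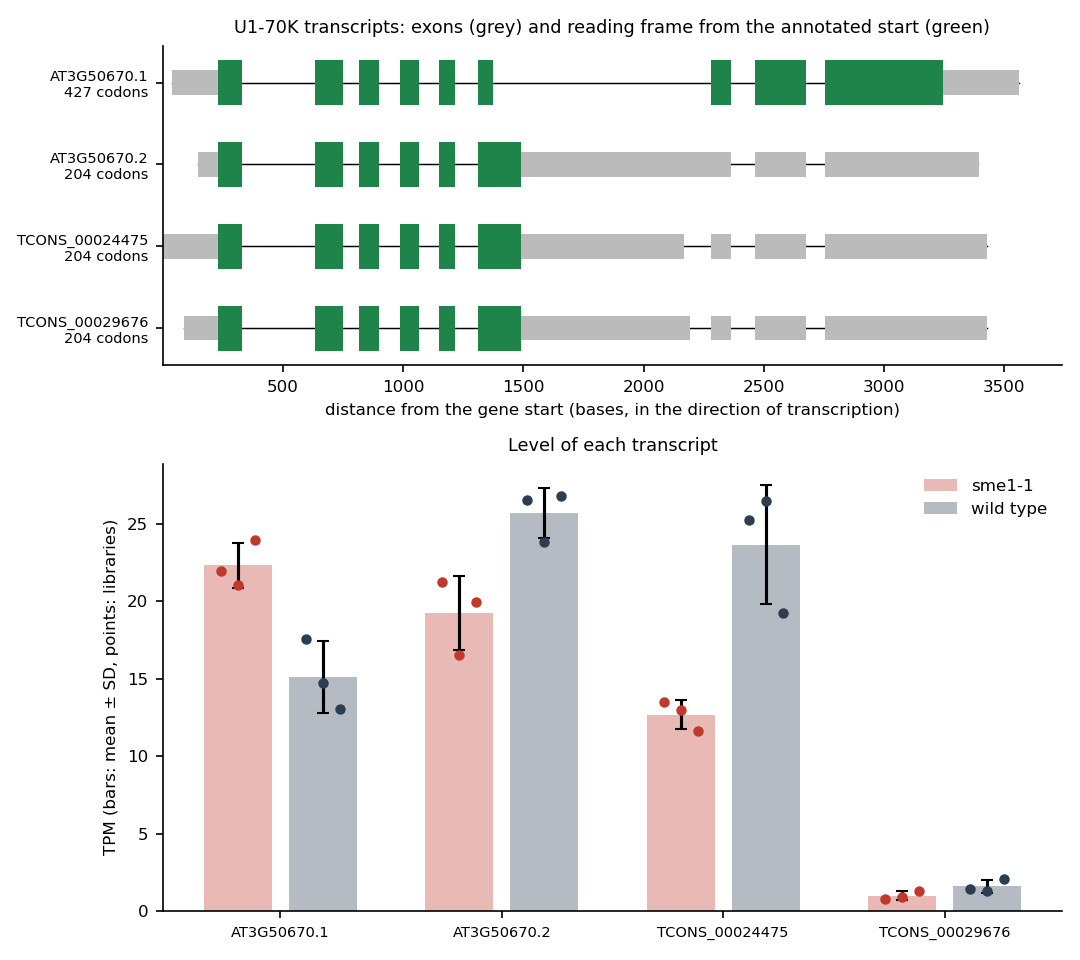
The 4 annotated U1-70K transcripts, with exons in grey and the reading frame in green against the distance from the gene start in bases (upper panel), and their TPM (lower panel) as the mean and SD of 3 libraries with a point per library, sme1-1 left of wild type. AT3G50670.1, which reads 427 codons, is higher in each sme1-1 library, and AT3G50670.2 and TCONS_00024475, which read 204, are lower.

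Among the other genes with a shift in use, AT2G40650, U2B'' and ATU2AF65A each had a transcript that retains an intron and fell. In AT2G40650 (chromosome 2, minus strand) the transcript that retains intron 1 of 5, TCONS_00019632, fell to 1.16, 1.18 and 0.941 TPM in sme1-1, against 3.07, 3.24 and 2.62 TPM in wild type (log2 change -0.92, SE 0.155, adjusted p = 0.00315). It reads 97 codons before a stop, while the spliced form reads 355. The full-frame AT2G40650.1 averaged 25.4 ± 0.774 TPM in sme1-1 and 27.4 ± 1.28 TPM in wild type and was not called, nor was TCONS_00018278, which retains intron 3 and had 1.98, 2.44 and 1.73 TPM in sme1-1 and 0.721, 0.166 and 1.42 TPM in wild type (adjusted p = 0.0504). In U2B'' (chromosome 2, minus strand) AT2G30260.2, which retains intron 4 and reads 162 of 232 codons, fell to 3.45, 4.59 and 4.21 TPM in sme1-1, against 11.2, 10.9 and 12.8 TPM in wild type (log2 change -1.31, SE 0.129, adjusted p = 0.000361). The full-frame AT2G30260.1 had 37.8, 36.1 and 40.7 TPM in sme1-1 and 52.6, 45.7 and 39.5 TPM in wild type, which overlap. All its other transcripts together had 8.12, 9.52 and 8.83 TPM in sme1-1 and 20.2, 22.1 and 28.0 TPM in wild type, which do not overlap.

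In ATU2AF65A (chromosome 4, minus strand) AT4G36690.2, which retains intron 11 of 12 and reads 542 of 573 codons, fell to 19.4, 17.2 and 20.8 TPM in sme1-1, against 33.6, 33.5 and 32.4 TPM in wild type (log2 change -0.77, SE 0.0857, adjusted p = 0.00059). AT4G36690.3, which reads 565 codons, had 55.6, 47.3 and 49.7 TPM in sme1-1 and 56.6, 47.7 and 42.4 TPM in wild type and was not called. In EMB2770 AT4G03430.2 had 1.90, 1.91 and 1.87 TPM in sme1-1 and 6.73, 5.18 and 3.29 TPM in wild type, a fall of 1.03 (SE 0.225, adjusted p = 0.00979). It reads the same 1029 codons as the other EMB2770 transcripts, so the shift lies outside the coding region. MEE5 also shifted outside its coding region. AT1G06220.1 had 29.3, 25.7 and 25.4 TPM in sme1-1 and 16.05, 18.04 and 16.1 TPM in wild type, a rise of 0.65 (SE 0.0905, adjusted p = 0.00144), while AT1G06220.2, with an added exon, had 1.82, 1.81 and 2.17 TPM in sme1-1 and 3.87, 2.81 and 2.20 TPM in wild type and was not called. In AT5G51410 AT5G51410.3 fell to 3.89, 1.52 and 1.79 TPM in sme1-1, against 4.92, 6.85 and 4.29 TPM in wild type (log2 change -0.94, adjusted p = 0.0335), and AT5G51410.1 had 12.2, 9.60 and 16.4 TPM in sme1-1 and 7.202, 9.46 and 11.3 TPM in wild type, which overlap. All its tested transcripts read 334 codons.

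Few introns of these genes changed in retention. For each intron that some transcripts retain and others splice, the retained share is the TPM of the retaining transcripts over that of both kinds. Among 62 introns tested in 23 of the 43 genes, none was called higher and 1 was called lower in sme1-1, beside 4.56% called higher and 1.03% called lower of all 16046. At an unadjusted p under 0.05 there were 4 higher and 7 lower, with no share of all introns at that threshold to set beside them. The median log2 ratio change of the 62 was -0.12, and that of all introns 0.26. The difference between these medians was not tested, and introns of 1 gene share transcripts.

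The intron called was intron 1 of AT2G40650, of 195 bases (chr2:16965112-16965306, minus strand). Its retained share was 3.88, 4.09 and 3.18% in sme1-1 libraries and 9.47, 9.83 and 8.45% in wild-type libraries, which do not overlap, with a log2 ratio change of -1.33 (SE 0.229, adjusted p = 0.0317). The call was lost without any one library (adjusted p 0.0602 to 0.108). Next in order was intron 4 of U2B'', of 127 bases (chr2:12905827-12905953, minus strand), with 7.51, 10.08 and 8.49% in sme1-1 and 15.4, 16.1 and 19.0% in wild type, which missed the threshold (adjusted p = 0.0507) but passed it with 0.5 TPM added to both sums (adjusted p = 0.0268) or with sums of at least 5 TPM (adjusted p = 0.0378). It missed the threshold without each library in turn (adjusted p 0.0888 to 0.142) and with Araport11 transcripts alone (adjusted p = 0.0774). A 100-base intron of ATU2AF65A, which starts at the donor of intron 11 (chr4:17294604-17294703, minus strand), had 25.9, 26.7 and 29.5% in sme1-1 and 37.3, 41.2 and 43.3% in wild type (adjusted p = 0.0691). These 3 are shown because, beside the 909-base intron of U1-70K, they had the smallest adjusted p of the introns inside coding regions; they were read from TAIR10.1, 5' to 3', with the first 6 and last 3 bases in capitals.
AT2G40650 intron 1: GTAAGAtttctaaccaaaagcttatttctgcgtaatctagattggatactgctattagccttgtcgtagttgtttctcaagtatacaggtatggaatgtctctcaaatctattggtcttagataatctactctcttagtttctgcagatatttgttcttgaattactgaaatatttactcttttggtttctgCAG
U2B'' intron 4: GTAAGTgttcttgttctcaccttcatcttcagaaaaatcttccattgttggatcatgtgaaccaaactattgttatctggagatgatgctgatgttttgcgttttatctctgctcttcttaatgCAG
ATU2AF65A 100-base intron: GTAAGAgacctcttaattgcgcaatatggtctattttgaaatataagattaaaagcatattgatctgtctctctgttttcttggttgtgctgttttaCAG

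All 3 introns begin with the bases GTAA, which none of the U1-70K donors shown has. An intron outside the coding region of EMB2770, of 289 bases, had 50.4, 62.9 and 66.6% in sme1-1 and 80.8, 75.7 and 83.0% in wild type (adjusted p = 0.0667). Among the differences upward was intron 3 of AT2G40650, with 6.98 ± 1.34% in sme1-1 and 2.44 ± 2.06% in wild type (adjusted p = 0.137). None of 28 alternative 3' splice sites and none of 11 skipped exons was called, with 1 and 3 at an unadjusted p under 0.05. The backgrounds at the adjusted threshold were 0.217% higher and 0.277% lower for the 3' sites and 0% higher and 0.664% lower for the exons. No background is given for the unadjusted counts. The added exon of MEE5 was included in 5.83, 6.56 and 7.85% in sme1-1 and in 19.4, 13.5 and 12.02% in wild type (adjusted p = 0.132).

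**Figure D5:**
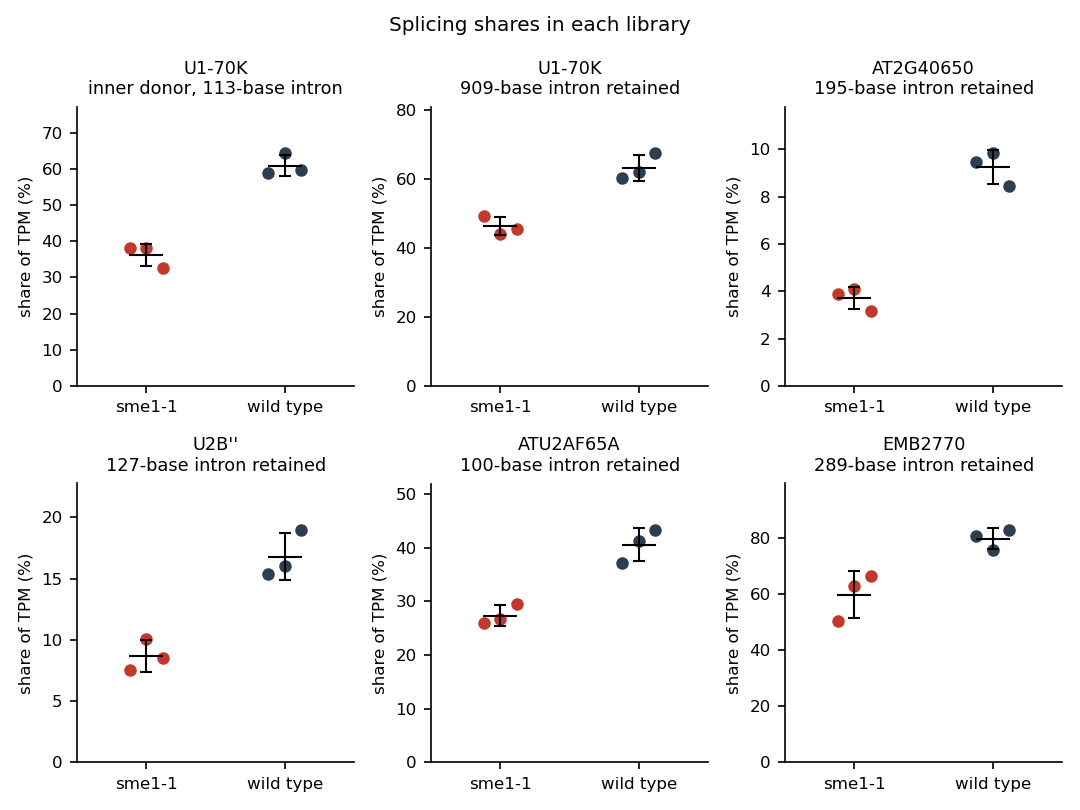
Share of TPM (y axis, percent, starting at 0) of the transcripts that use the U1-70K inner donor or retain the named intron, in each library (points) with the mean and SD of 3 libraries (black), sme1-1 left and wild type right. All 6 shares are lower in each sme1-1 library than in each wild-type library, and those of the U1-70K inner donor and the 195-base AT2G40650 intron passed the test.

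A further measure, chosen after the data were seen, adds up the TPM of transcripts whose frame from the annotated start holds at least 90% of the codons of the longest annotated frame. It could be tested in 17 of the 43 genes and was called higher in 1, U1-70K (40.4% in sme1-1 against 22.8% in wild type, adjusted p = 0.0419), and lower in none, beside 1.28% and 2.03% of all 7349 genes. The log2 ratio was above 0 in 13 of the 17, beside 46.3% of all genes. The median log2 ratio change was 0.42, beside -0.06 over all genes, and neither difference was tested. The remaining transcripts include some that lack the annotated start, in UNE6, PRP39, ATU2AF35A and SR45a. For these genes the share does not measure early stops alone. In 4 of the 13 the genotypes did not overlap, with no such share over all genes to set beside it. The largest change of the 17 ran the other way, in AT1G20920, where the genotypes did not overlap either. Its share was 93.4 ± 4.19% in sme1-1 and 98.2 ± 0.574% in wild type (log2 ratio change -1.59, adjusted p = 0.118). That ratio rests on low values of its remaining transcripts, 1.03, 2.74 and 0.963 TPM in sme1-1 and 0.583, 0.43 and 0.271 TPM in wild type. Its near full-length transcripts averaged 22.4 ± 1.08 TPM in sme1-1 and 22.98 ± 1.10 TPM in wild type. The measure uses the same transcript values as the tests of use and is not independent of them. In U2B'' the share was 82.3, 79.1 and 82.2% in sme1-1 and 72.3, 67.4 and 58.6% in wild type and missed the threshold (adjusted p = 0.0763). The U1-70K call was lost without any one library.

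Of 54 further genes of splicing complexes, 50 were tested. Of these 23 rose and 9 fell, beside 47.3% and 20% of all genes. Their median log2 change was 0.11, beside 0.22 over all genes. Of the 50, 4 (AT5G45990, AT5G25230, AT3G16650 and emb2444) rose by 2-fold or more on the log2(TPM + 1) scale, beside 14.1% of all genes. None of the 43 did, and these differences were not tested. After median-of-ratios scaling 16 of the 50 were higher and 22 lower, beside 33.9% and 33.2% of all genes. The 4 with the smallest adjusted p all rose. AT5G45990, annotated as a putative crooked neck protein, had 3.23, 3.27 and 3.66 TPM in sme1-1 and 0.278, 0.19 and 0.292 TPM in wild type (log2 change 1.81, SE 0.103, adjusted p = 3.09e-05). AT4G22380, a ribosomal protein L7Ae family gene, had 47.9, 44.5 and 46.7 TPM in sme1-1 and 25.0, 22.5 and 21.3 TPM in wild type (log2 change 0.99, SE 0.0721). AT3G16650, a WD40 gene similar to PRL1, had 5.22, 4.66 and 5.66 TPM in sme1-1 and 1.32, 1.64 and 1.41 TPM in wild type (log2 change 1.33, SE 0.102). AT5G25230, similar to MEE5, had 2.06, 1.84 and 2.09 TPM in sme1-1 and 0.191, 0.137 and 0.197 TPM in wild type (log2 change 1.35, SE 0.107). It shares 33% of its 31-base windows with MEE5, so part of its reads could come from that gene. SmE-a (AT4G30330), the second SmE gene, had 32.3, 34.4 and 34.1 TPM in sme1-1 and 23.3, 21.6 and 26.4 TPM in wild type, a rise of 0.49 (SE 0.0815, adjusted p = 0.00183).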

How the data were processed

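Shoot mRNA of sme1-1 and wild type, 3 libraries each, was sequenced from a stranded kit as 150 bp paired reads, per the labels' protocols. STAR 2.5.2b and kallisto 0.43.0 are named in the submitters' processing notes, with no word on the step each served. The deposited TPM values, for 37869 genes and 76209 transcripts, sum to 1000000 in each library. The deposited annotation joins 59448 Araport11 transcripts with 16761 assembled by scallop, per the file headers' source column, with its genome build not given in the sources used here. Read on RefSeq's TAIR10.1, 99.44% of its 141522 nuclear introns start GT or GC and end AG, and all exons lie inside the chromosomes. RefSeq held 37573 of the gene identifiers and all 43 of the genes described.

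Genes that reached a mean of 1 TPM were tested in limma 3.58.1 (R 4.3.3) on log2(TPM + 1), with a trended variance and Benjamini-Hochberg adjustment over all genes tested, at 0.05. Fold changes are on that scale, which understates those of low genes. Transcripts were tested alike, and relative use with diffSplice. Splicing events were built from the annotation, and log2 ratios of the summed TPM of both forms (0.1 TPM added to each, together at least 2 TPM, mean share between 0.02 and 0.98) were tested in limma. Pair shares had an exact permutation test over 20 assignments. The fits were tested on simulated data, where diffSplice made more false calls than its threshold allows and the test of a transcript against the rest of its gene recovered few of the changes. Alternatives were other scalings, pseudocounts and filters, Araport11 transcripts alone, a replicate block and leaving out each library.

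The genes, lists and tests were chosen with earlier results of these data known. The test of a transcript against the rest of its gene, the near full-length share and the choice of the longest frame as its standard were added after the data were seen. Values per library are given for up to 3 genes per role with the smallest adjusted p, the 3 largest rises and falls, the transcripts with the largest rise and fall in genes whose use changed, the called events and the 4 other spliceosome genes with the smallest adjusted p. Genes and events described beyond that rule were chosen after their values were seen.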

Additional observations from a re-analysis of the deposited data

How the results depend on the processing

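Scaling moved the gene counts most: of the 43 genes, 21 higher and 5 lower became 12 and 15 after median-of-ratios scaling and 13 and 9 after quantile normalization. All genes called lower became 6674 and 7293 under these scalings, all genes called higher 6116 after quantile normalization, and other spliceosome genes called lower 22 and 18. Transcripts of the 43 genes became, after median-of-ratios scaling, 12 higher and 24 lower, and 5 lower with a minimum of 5 TPM. Genes with changed transcript use, 7 in all, became 3 with a minimum of 5 TPM and 2 when each transcript was set against the rest. Retained introns called lower became 5 with 0.5 TPM added, 4 with sums of at least 5 TPM and 0 with Araport11 transcripts alone, which also left 0 alternative 5' splice sites. Near full-length shares changed became 2 with 0.5 TPM added. Leaving out each library gave 17 to 20 of the 43 genes higher, 1 to 5 lower, 4 to 8 with changed use, 17 to 23 transcripts higher and 7 to 13 lower. It left 0 retained introns, 0 alternative 5' splice sites and 0 near full-length shares called. Median-of-ratios scaling turned the sign of 15 of the 43 genes, of which 9 were called before or after it: AT5G17440 (-0.17), PRP40A (-0.0705), PRP40B (-0.19), AT1G60900 (-0.0322), AT1G20920 (-0.19), emb1220 (-0.23), MAC3B (-0.145), MOS4 (-0.0229) and SMP1 (-0.0613). The other 6 were AT5G51410, AT5G51300, STIPL1, AT1G54380, SR45 and SUA. Quantile normalization turned 12, of which 3 were called before or after it: PRP40A (-0.0477), ILP1 (-0.0041) and STIPL1 (-0.31). The other 9 were AT5G17440, AT5G51410, PRP40B, AT5G51300, AT1G20920, emb1220, AT1G54380, SR45 and SUA. Libraries with the same replicate number correlated at 0.0168 to 0.0562 in their deviations, and each correlated best with its own number, a hint from the data and not from the design. They share only a number, so no pairing was used. With the replicate block, 22 of the 26 gene calls remained, 4 were lost and 1 was gained, and 0 retained introns, 0 alternative 5' splice sites and 0 near full-length shares were called. The causes were not tested. Depth is unknown, and 3 libraries a genotype limit the precision.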
